A study of Mus musculus with 6 samples.

Results

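The Ly6 surface antigen genes examined here were 8 mouse genes, Ly6a, Ly6c1, Ly6c2, Ly6d, Ly6e, Ly6g, Ly6i and Ly6k, in 2 kinds of cultured CD8+ T cell. They were taken by symbol from the array annotation, and 7 of the 8 had a probe set carrying that symbol alone. Those 7 genes had 8 of the 41345 probe sets, because Ly6k had 2, and no probe set named a member among several symbols. Ly6a was not analysed here. Where a gene had more than 1 probe set, its value came from the probe set chosen by mean level, the brightest on average across all 6 arrays. The choice of a probe set thus used mean levels only, and within the members it decided only between the Ly6k probe sets. The members themselves had been chosen with earlier results of these data known.

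The cells were naive mouse CD8+ T cells from spleen, sorted and then activated over 4 days with anti-CD3 (1 µg/ml) and anti-CD28 (3 µg/ml). Tc17 cultures, the IL-17-producing type, had IL-6 and TGF-beta for 3 days, and Tc1 cultures, the interferon-gamma-producing type, had IL-12 in their place; IL-2 was added to both for 1 further day. Neither group is an untreated control, and the labels give no strain, age or number of pooled animals. Each group had 2 biological samples, with a further technical array read as a repeat of sample 2, so n = 2 throughout. The limma p-values rest on the spread between these samples, moderated by that of all probe sets. They cover no variation beyond these samples.

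Ly6 genes encode small, disulphide-rich proteins that are mostly held on the cell surface by a glycosylphosphatidylinositol (GPI) anchor. Many of them lie side by side in a cluster of duplicated genes on mouse chromosome 15, where neighbours can be close copies of each other. Immunologists use several as surface labels: Ly6C, encoded by Ly6c1 and Ly6c2, on effector and memory CD8+ T cells and on monocytes, Ly6G on neutrophils, and Sca-1, encoded by Ly6a, on stem cells and activated T cells. Interferons are known to induce a number of family members.

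In Tc17 cells Ly6c2 fell 19.4-fold and Ly6g rose 5.74-fold relative to Tc1 cells, and the other 5 measured members did not pass the test. Folds are ratios of array intensities. The test was limma on log2 intensities of all 41345 probe sets, with a Benjamini-Hochberg adjusted p of 0.05 as the threshold. Thus 1 of 7 members was higher and 1 lower. Over the main probe sets of all 22180 genes, 0.992% were higher, 0.591% were lower and 1.58% passed in either direction (1.01% of all 41345 probe sets). The members had been chosen with results of these data known, so their share is a description. The median log2 difference was 0.08 over the 7 members and -0.01 over all genes.

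The sequences before the start sites are shown for Ly6c2 and Ly6g, the called members, for Ly6c1, the gene that shares the Ly6C antigen with Ly6c2, and for Ly6a2, the gene between Ly6c2 and Ly6g. Of the 8 members, 3 (Ly6c1, Ly6c2 and Ly6g) had a promoter entry in the RefSeq table, build GRCm38.p6. Each line gives the 250 bases before the first start site listed for that gene, 5′ to 3′ on the gene's strand, and capitals mark matches to the motifs described after the lines.
Ly6c2, chr15:75111972-75112221, minus strand: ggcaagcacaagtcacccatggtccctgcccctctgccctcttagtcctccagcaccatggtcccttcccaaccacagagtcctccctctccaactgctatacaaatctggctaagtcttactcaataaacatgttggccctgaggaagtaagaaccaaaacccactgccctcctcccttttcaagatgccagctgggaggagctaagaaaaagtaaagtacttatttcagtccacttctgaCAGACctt
Ly6a2, chr15:75135129-75135378, minus strand: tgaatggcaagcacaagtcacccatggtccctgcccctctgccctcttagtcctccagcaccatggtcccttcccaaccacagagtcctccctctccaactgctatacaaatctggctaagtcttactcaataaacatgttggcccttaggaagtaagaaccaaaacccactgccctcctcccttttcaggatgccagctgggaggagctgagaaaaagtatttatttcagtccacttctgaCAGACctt
Ly6g, chr15:75155011-75155260, plus strand: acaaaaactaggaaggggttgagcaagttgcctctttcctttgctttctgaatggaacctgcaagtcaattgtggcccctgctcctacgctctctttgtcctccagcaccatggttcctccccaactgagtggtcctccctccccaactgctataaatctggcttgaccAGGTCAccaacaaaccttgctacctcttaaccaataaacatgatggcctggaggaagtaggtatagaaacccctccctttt
Ly6c1, chr15:75048838-75049087, minus strand: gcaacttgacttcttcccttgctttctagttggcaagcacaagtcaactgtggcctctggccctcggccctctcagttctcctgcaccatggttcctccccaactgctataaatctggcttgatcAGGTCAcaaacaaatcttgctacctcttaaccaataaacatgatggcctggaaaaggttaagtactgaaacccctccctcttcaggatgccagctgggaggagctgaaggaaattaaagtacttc
The Ly6c2 and Ly6a2 stretches were nearly the same sequence, with 241 identical bases among 245 aligned (98.4%). Ly6c2 shared 78.0% of 173 aligned bases with Ly6g and 75.9% of 216 with Ly6c1, and Ly6g shared 83.5% of 206 with Ly6c1. These are descriptions of windows set by each gene's annotated start.

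Motifs were searched on both strands as plain letters. TTCNNNGAA, the GAS element bound by STAT dimers, had no match in these 4 windows and matched 7.02% of 32841 promoter windows of the same length. CAGAC, the SMAD box, was found once in Ly6c2 and once in Ly6a2, against 42.2% of windows. AGGTCA, a nuclear receptor half-site, was found once in Ly6g and once in Ly6c1, against 14.03% of windows. TCACAC, a T-box half-site, had no match in the 4 and was present in 12.3%. These matches depend on the start chosen: the window of the second start listed for Ly6c1 held a SMAD box and a T-box half-site and no nuclear receptor half-site. A match is not evidence of binding, and no match says only that those letters are missing from that window.

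Ly6c2 encodes a form of the Ly6C antigen. Its log2 intensity was 7.80 in Tc17 sample 1 and, across the pair of Tc17 sample 2 arrays, 7.76 and 7.27, against 11.97 in Tc1 sample 1 and, across its sample 2 pair, 11.83 and 11.98. All Tc17 arrays lay far below all Tc1 arrays, and the gap between the groups was many times the gap between repeat arrays, which was 0.49 in Tc17 and 0.15 in Tc1. The means were 7.66 ± 0.20 in Tc17 and 11.94 ± 0.05 in Tc1 (SD, n = 2 each). The log2 difference was -4.28 ± 0.12 (SE; 95% interval -4.59 to -3.96; limma adjusted p = 0.00272), and it passed in each of the 4 fits that left out 1 sample (limma adjusted p = 0.0177 to 0.0317). In RNA from whole cultures, fewer cells making a transcript and less transcript per cell cannot be told apart.

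Ly6c1 is the other gene of the Ly6C antigen. It measured 5.44 in Tc17 sample 1 and, across the pair of Tc17 sample 2 arrays, 4.97 and 4.84, against 5.33 in Tc1 sample 1 and, across its sample 2 pair, 4.84 and 5.30. The groups overlapped, and both means (5.17 ± 0.38 in Tc17 and 5.20 ± 0.18 in Tc1, SD, n = 2 each) were below every array's median, which lay between 6.04 and 6.09. No array carries a detection call, so signal above background was not shown for Ly6c1 in either group. Its difference of -0.03 (95% interval -0.57 to 0.52; limma adjusted p = 0.977) had no settled sign: it was 0.24 without Tc17 sample 2 and -0.30 without Tc17 sample 1.

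Ly6g encodes Ly6G, part of the Gr-1 antigen used to identify neutrophils. It measured 9.39 in Tc17 sample 1 and, across the pair of Tc17 sample 2 arrays, 9.86 and 9.73, against 7.08 in Tc1 sample 1 and, across its sample 2 pair, 7.06 and 7.08. The Tc1 arrays were almost level, the Tc17 samples differed by 0.40, and the groups did not overlap. The means were 9.60 ± 0.28 in Tc17 and 7.07 ± 0.003 in Tc1 (SD, n = 2 each). The log2 difference was 2.52 ± 0.15 (SE; 95% interval 2.13 to 2.92; limma adjusted p = 0.0114). The call was lost without Tc1 sample 1 (limma adjusted p = 0.0767) or Tc1 sample 2 (0.0856), where the difference was still 2.52.

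No other neutrophil gene of the marker list passed as higher in Tc17. Of 11 granulocyte markers none was called higher, and 10 of the 11, among them S100a8, S100a9, Elane, Mpo, Camp and Csf3r, had group means under the median of every array. The differences of those 10 ran between -0.15 (Camp) and 0.11 (Ltf). The remaining marker, the chemokine receptor gene Cxcr2, was lower in Tc17: it averaged 7.62 in Tc17 and 10.36 in Tc1, a log2 difference of -2.74 (limma adjusted p = 0.0382), with that call lost without Tc1 sample 1 (0.171) or sample 2 (0.163). The summed intensity of the 11 markers ran from 517 to 667 in Tc17 arrays and from 1665 to 1780 in Tc1 arrays, a gap that came from Cxcr2. Without it the other 10 summed to 391 to 410 in Tc17 arrays and 388 to 412 in Tc1 arrays.

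**Figure D1:**
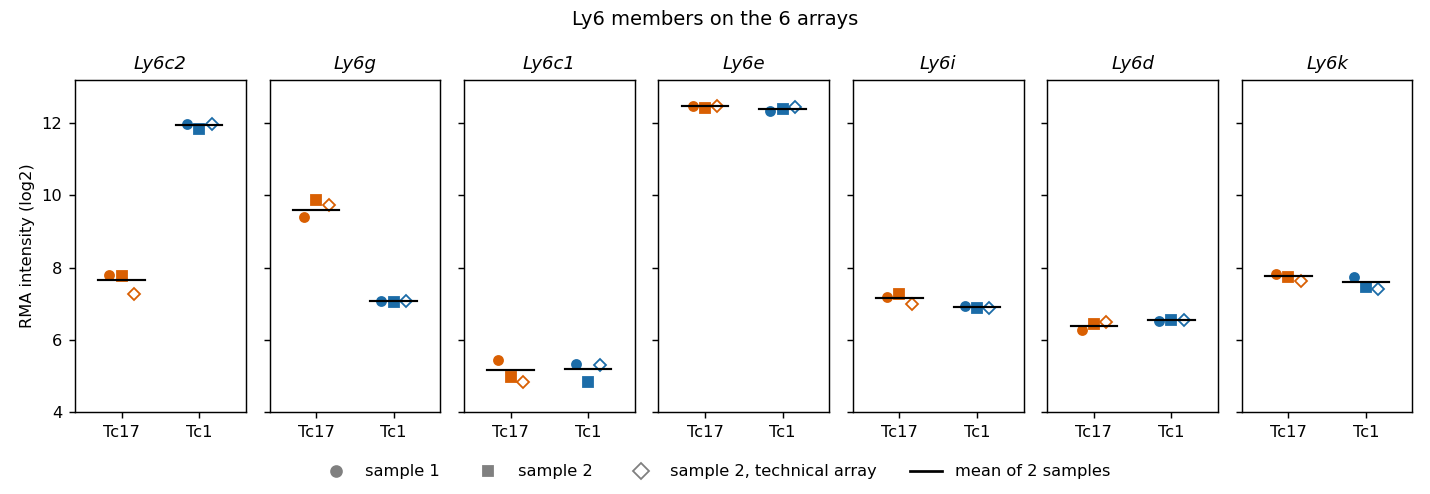
RMA log2 intensity (vertical axis) of the 7 measured Ly6 members on each array, with Tc17 left of Tc1 in every panel; filled circles are sample 1, squares sample 2, open diamonds the technical array and bars the mean of 2 samples. Ly6c2 sits near 7.66 in Tc17 and 11.94 in Tc1, Ly6g near 9.60 in Tc17 and 7.07 in Tc1, and the differences of the other 5 genes, Tc17 minus Tc1, run from -0.17 to 0.25.

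Ly6e, a broadly expressed member known to be induced by interferon and first described on thymocytes, was bright in both conditions. It measured 12.46 in Tc17 sample 1 and, across the pair of Tc17 sample 2 arrays, 12.43 and 12.48, against 12.34 in Tc1 sample 1 and, across its sample 2 pair, 12.40 and 12.45. The groups overlapped, and the difference was 0.08 ± 0.08 (SE; 95% interval -0.12 to 0.28; limma adjusted p = 0.751).

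Ly6i, a gene of the same cluster, measured 7.19 in Tc17 sample 1 and, across the pair of Tc17 sample 2 arrays, 7.28 and 7.005, against 6.95 in Tc1 sample 1 and 6.88 on each array of sample 2. Every Tc17 array was above every Tc1 array, but by a narrow margin, and the repeat arrays of Tc17 sample 2 themselves differed by 0.28. The difference of 0.25 ± 0.08 (SE; 95% interval 0.05 to 0.45) did not pass (limma adjusted p = 0.28).

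Ly6d, known from lymphoid progenitors committed towards B cells, measured 6.27 in Tc17 sample 1 and, across the pair of Tc17 sample 2 arrays, 6.46 and 6.51, against 6.54 in Tc1 sample 1 and, across its sample 2 pair, 6.56 and 6.54. The groups did not overlap, though the nearest arrays were only hundredths apart. The difference of -0.17 ± 0.10 (SE; 95% interval -0.43 to 0.10) did not pass (limma adjusted p = 0.587). Among 7 measured B and plasma cell markers, the transcription factor gene Ebf1 was called higher in Tc17 (8.94 in Tc17 and 5.81 in Tc1). Ebf1 was 1 of 2 among the 7 with an unadjusted p under 0.05, against 15.9% of all genes. The other was Cd79b, a chain of the B cell receptor complex, which averaged 10.32 in Tc17 and 9.80 in Tc1 and did not pass (0.52; limma adjusted p = 0.162). Ms4a1, Cd22 and Jchain were below every array median in both groups, while Cd79a (6.06 in Tc17 and 6.05 in Tc1) and Pax5 (6.35 in each group) lay near or above the medians.

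Ly6k, known from mouse testis and sperm, had 2 probe sets. The main probe set measured 7.84 in Tc17 sample 1 and, across the pair of Tc17 sample 2 arrays, 7.75 and 7.63, against 7.75 in Tc1 sample 1 and, across its sample 2 pair, 7.46 and 7.40. The groups overlapped (difference 0.17; 95% interval -0.18 to 0.53; limma adjusted p = 0.682). The second probe set averaged 5.89 in Tc17 and 5.90 in Tc1, below every array median, with a difference of -0.01 (limma adjusted p = 0.972). The signs of the Ly6k probe sets thus differed, and neither passed.

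Counted over arrays, the groups did not overlap in 4 of 7 members (Ly6c2, Ly6g, Ly6i and Ly6d), a separation seen in 29.7% of genes. At an unadjusted limma p under 0.05 there were 3 of 7, Ly6i being the third, against 15.9% of all 22180 genes.

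The 8 members lie on chromosome 15 in the RefSeq annotation, and the array measured 22 of the 44 genes in the stretch that spans them with 10 genes on either side. Ly6c2 and Ly6g were the called genes of the 22. In RefSeq order Ly6c2, Ly6a2 and Ly6g follow each other, so the neighbours of opposite direction are separated by a single annotated gene. None of the 15 measured non-members passed, against 1.58% of all genes, and their median difference was 0.02. The arrays did not overlap in 5 of the 15, against 29.7% of all genes.

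Ly6a2, the gene in between, measured 7.10 in Tc17 sample 1 and, across the pair of Tc17 sample 2 arrays, 7.09 and 7.26, against 8.62 in Tc1 sample 1 and, across its sample 2 pair, 9.19 and 9.45. The groups did not overlap, and Tc1 sample 1 was lower than either array of Tc1 sample 2. Its difference of -1.83 ± 0.24 (SE) missed the threshold (limma adjusted p = 0.0641), and passed without Tc1 sample 1 (-2.18; limma adjusted p = 0.0406). It has the Ly6c2 direction, and its upstream sequence is the one shown above as nearly identical to that of Ly6c2. The stretch of Ly6g shared 88.8% of 179 aligned bases with that of Ly6f. Ly6f differed by 0.03, with both group means below every array median. Whether upstream sequence has a part in the differences was not tested. The data used here hold no probe sequences, so whether the probe set of one close copy also reads another was not tested, for Ly6c2 and Ly6a2 or for Ly6g and its relatives.

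**Figure D2:**
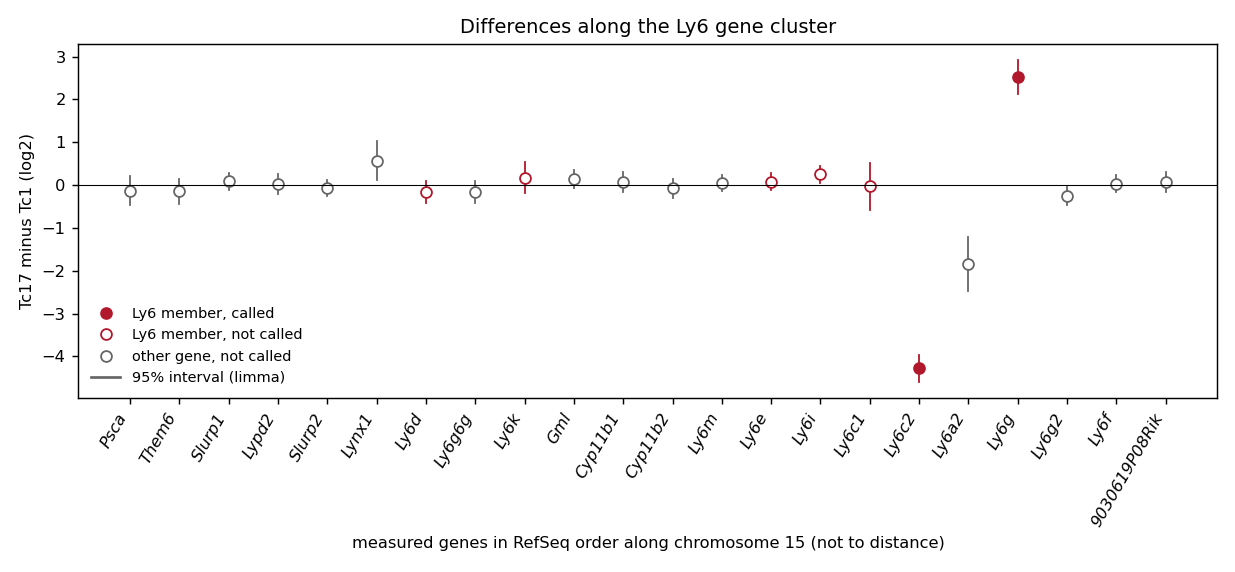
Log2 difference, Tc17 minus Tc1 (vertical axis), for the 22 measured genes in RefSeq order along chromosome 15, not drawn to distance; red points are Ly6 members, filled where called, and vertical lines are 95% limma intervals. Ly6c2 at -4.28 and Ly6g at 2.52 flank Ly6a2 at -1.83, and the other genes lie between -0.27 and 0.57.

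Elsewhere in the Ly6/uPAR family, the larger group that shares the Ly6 fold, 0 of 30 measured genes passed in limma, and 7 of 30 had an unadjusted p under 0.05, against 15.9% of all genes. Their median difference was -0.02, against -0.01 over all genes. After Ly6a2 the largest uncalled difference was that of Lypd6b, which averaged 5.83 in Tc17 and 6.97 in Tc1 (-1.14; limma adjusted p = 0.233). Of the 7, Ly6a2, Lypd6b and Ly6g2 (-0.27) were lower in Tc17, while Cd59a (0.86), Plaur (0.69), Lynx1 (0.57) and Cd59b (0.31) were higher. Ly6f and Ly6g2, which lie beyond Ly6g in the cluster, were below every array median in both groups, as was Cd59b.

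The machinery that builds the GPI anchor did not pass either, with 0 of 26 measured genes called in limma and a median of -0.04. There were 6 of 26 at an unadjusted p under 0.05, against 15.9% of all genes. Of those 6, Pigp, Pigz and Pigl (0.31) were higher in Tc17, while Pgap1 (-0.51), Piga (-0.48) and Dpm3 (-0.22) were lower. Pigp, a subunit of the enzyme that starts the anchor, averaged 8.75 in Tc17 and 7.996 in Tc1 (0.75; limma adjusted p = 0.0674). Pigz, a mannosyltransferase of the pathway, averaged 8.05 in Tc17 and 7.47 in Tc1 (0.58; limma adjusted p = 0.0635).

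The list drawn up for other GPI-anchored surface genes of lymphocytes had 18 measured genes, and the anchoring of each product was not checked. Of these, 2 rose in Tc17 (against 0.992% of all genes) and none fell (against 0.591%), with a median of -0.02. At an unadjusted p under 0.05 there were 4 of 18, against 15.9% of all genes. Nt5e, the gene of the ectoenzyme CD73, averaged 11.76 in Tc17 and 9.22 in Tc1 (2.54 ± 0.28 SE; limma adjusted p = 0.0436), and Izumo1r, the folate receptor family gene also called FR4, averaged 8.92 in Tc17 and 7.35 in Tc1 (1.57 ± 0.12 SE; limma adjusted p = 0.0179). Ulbp1, a ligand of NKG2D, differed by -2.06 without passing (limma adjusted p = 0.0961), and Sema7a had one of 0.72 (0.518). Of the 4 fits that left out 1 sample, Nt5e lost its call without Tc17 sample 1 (limma adjusted p = 0.205) and without Tc17 sample 2 (0.173). Izumo1r lost its call in all of them (0.0679 to 0.111) but the one without Tc1 sample 1 (0.0449). Ulbp1 passed as lower without Tc17 sample 1 (-2.55; limma adjusted p = 0.031), the single call of the list in that fit.

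Interferon-responsive genes are given here because several Ly6 genes respond to interferon. At an unadjusted p under 0.05 there were 8 of 17 measured, against 15.9% of all genes, with a list median of -0.13. None was called higher and 4 were called lower in Tc17, against 0.591% of all genes: Igtp (-1.50), Irf1 (-1.17), Tap1 (-1.08) and Psmb9 (-0.91). None of the 4 passed in any fit that left out 1 sample. Usp18, a protease gene that dampens interferon signalling, averaged 6.88 in Tc17 and 10.52 in Tc1 and did not pass (-3.64; limma adjusted p = 0.0755), nor did Irgm1 (-0.61; 0.0804). The others of the 8 were Socs1, higher in Tc17 (10.78 in Tc17 and 10.18 in Tc1, 0.60), and Isg15, lower (-0.42). Neither passed (limma adjusted p = 0.145 and 0.212). Of all 17 differences, 5 were above 0 and 12 below. Set beside the genes of this list, the called members were Ly6c2 at -4.28 and Ly6g at 2.52. Members that were not called ran from -0.17 (Ly6d) to 0.25 (Ly6i), with Ly6e at 0.08. What part interferon has in the Ly6 differences was not tested.

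**Figure D3:**
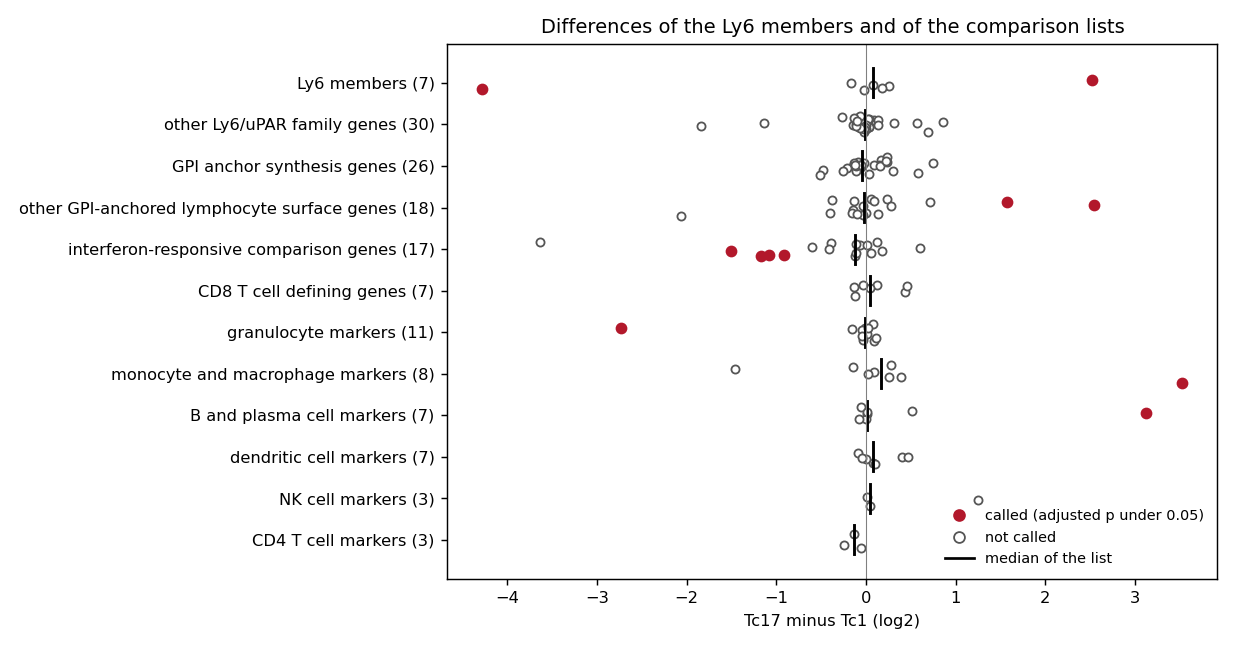
Log2 difference, Tc17 minus Tc1 (horizontal axis), of each measured gene in the Ly6 members and the comparison lists, with the number measured in brackets; red points passed an adjusted p of 0.05, open points did not, black bars are list medians and vertical scatter has no meaning. The Ly6 members hold both a called decrease (-4.28) and a called increase (2.52) around a median of 0.08.

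The genes whose array pattern was nearest to that of a member were found among 19242 other named genes by the root mean square distance between values centred on each gene's own mean over the 6 arrays. For Ly6c2 these were Me1, malic enzyme (distance 0.23 on the log2 scale), the serpin genes Serpinb6b (0.27) and Serpinb9 (0.28), Ms4a4b and Esm1 (0.31 each). All of these 5 were called lower in Tc17, by log2 differences from -4.66 to -3.74; the Tc17 means of Me1 (5.18), Ms4a4b (5.28) and Esm1 (5.93) were below every array median. For Ly6g they were Ptgfrn (0.10), the chemokine receptor gene Ccr8 and Lrig1 (0.20 each), the leukotriene receptor gene Cysltr1 (0.24) and the costimulatory ligand gene Cd86 (0.25), all called higher by 2.16 to 2.96. Among these 10 genes, Me1, Serpinb9, Ms4a4b and Lrig1 passed in all 4 fits that left out 1 sample. Serpinb6b, Esm1 and Ptgfrn missed without Tc1 sample 2 (limma adjusted p = 0.0503, 0.0536 and 0.0503), Cysltr1 and Cd86 without either Tc17 sample (0.0507 to 0.0848), and Ccr8 in all 4 (0.0689 to 0.112). For the uncalled Ly6i the nearest were Tmem208, Carhsp1, Sfr1, Ccdc112 and Morf4l1-ps1, at 0.041 to 0.046. Such lists follow the size of a difference, and the arrays of one sample are shared by all genes.

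**Figure D4:**
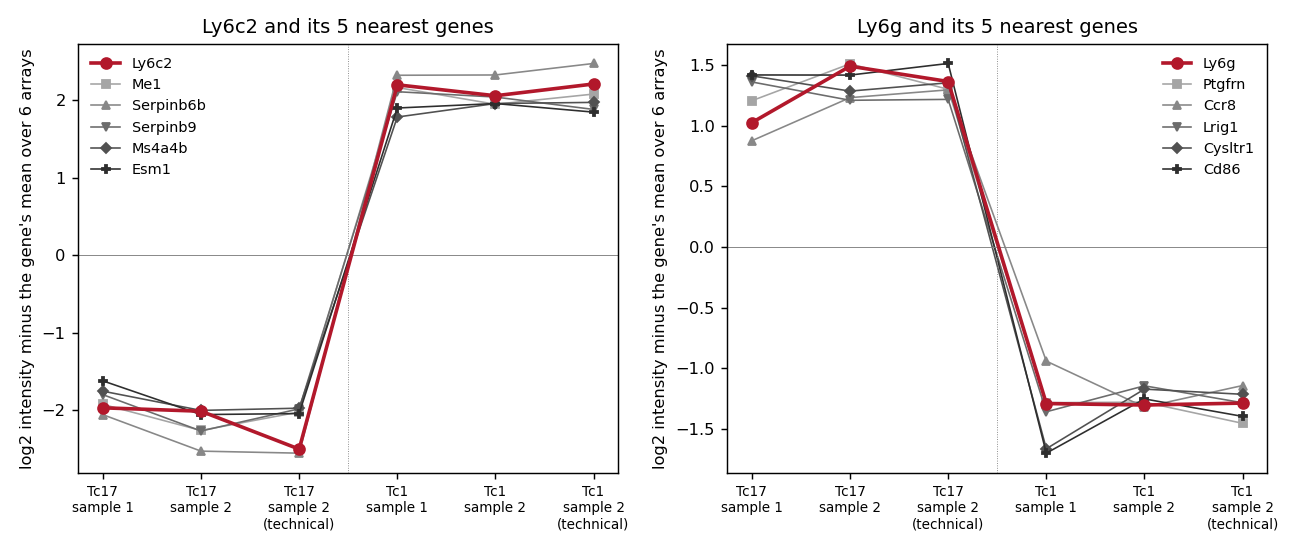
Log2 intensity minus the gene's own mean over 6 arrays (vertical axis) on each array, Tc17 arrays left of Tc1 arrays, for Ly6c2 (left) and Ly6g (right) in red and their 5 nearest genes in grey. The genes drawn with Ly6c2 are low on every Tc17 array and those with Ly6g high on every Tc17 array; the technical Tc17 array of Ly6c2 is its lowest point.

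The cells carried the genes that define CD8+ T cells. All 7 measured defining genes, among them Cd8a, Cd8b1, Cd3d, Cd3e and Cd3g, averaged above 10.7 in each group and none was called. Cd2 (0.44) and Cd5 (0.45) had an unadjusted p under 0.05, 2 of 7 against 15.9% of all genes. Of other cell types, Lyz2 (8.97 in Tc17 and 5.44 in Tc1; limma adjusted p = 0.00594) was the called gene among 8 monocyte and macrophage markers, a call lost without Tc1 sample 2 (0.055). At an unadjusted p under 0.05 there were 5 of 8, against 15.9% of all genes. Besides Lyz2 these were Csf1r (6.56 in Tc17 and 6.28 in Tc1), Cd14 (5.39 in Tc17 and 5.14 in Tc1) and Adgre1 (5.23 in Tc17 and 4.85 in Tc1), with higher Tc17 means, and the chemokine receptor gene Ccr2, with a lower one (6.72 in Tc17 and 8.18 in Tc1; -1.46; limma adjusted p = 0.265). Cd14, Adgre1 and Fcgr1 were below every array median in both groups, and Cd68 averaged 9.85 in Tc17 and 9.99 in Tc1. Summed over those 8, intensity ran from 1741 to 1926 in Tc17 arrays and from 1319 to 2002 in Tc1 arrays. Without Lyz2 the other 7 summed to 1300 to 1346 in Tc17 and 1275 to 1965 in Tc1. The 7 B and plasma cell markers summed to 1900 to 2117 in Tc17 arrays and 1133 to 1256 in Tc1 arrays. Leaving out Ebf1, the other 6 gave 1453 to 1582 in Tc17 and 1073 to 1198 in Tc1. Sums of the 3 NK markers ran from 244 to 381 in Tc17 and from 144 to 182 in Tc1. The dendritic and CD4 T cell sums overlapped between the groups. None of the measured dendritic (7), NK (3) or CD4 T cell (3) markers passed. At an unadjusted p under 0.05 there were 0, 1 and 0 of them, against 15.9% of all genes. The furthest differences were 0.47 (H2-Aa) and 0.40 (Itgax) among the dendritic markers, 1.25 (Klri2, the one at an unadjusted p under 0.05) and 0.04 (Klrb1c) among the NK markers, and -0.24 (Cd40lg) and -0.13 (Zbtb7b) among the CD4 markers. What part other cells have in the Ly6 values was not tested.

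Ly6c2 and Ly6g kept their directions under all 16 alternative settings of the processing and the test. Ly6i stayed above 0 in all of them and passed in none (limma adjusted p = 0.157 to 0.731).

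**Figure D5:**
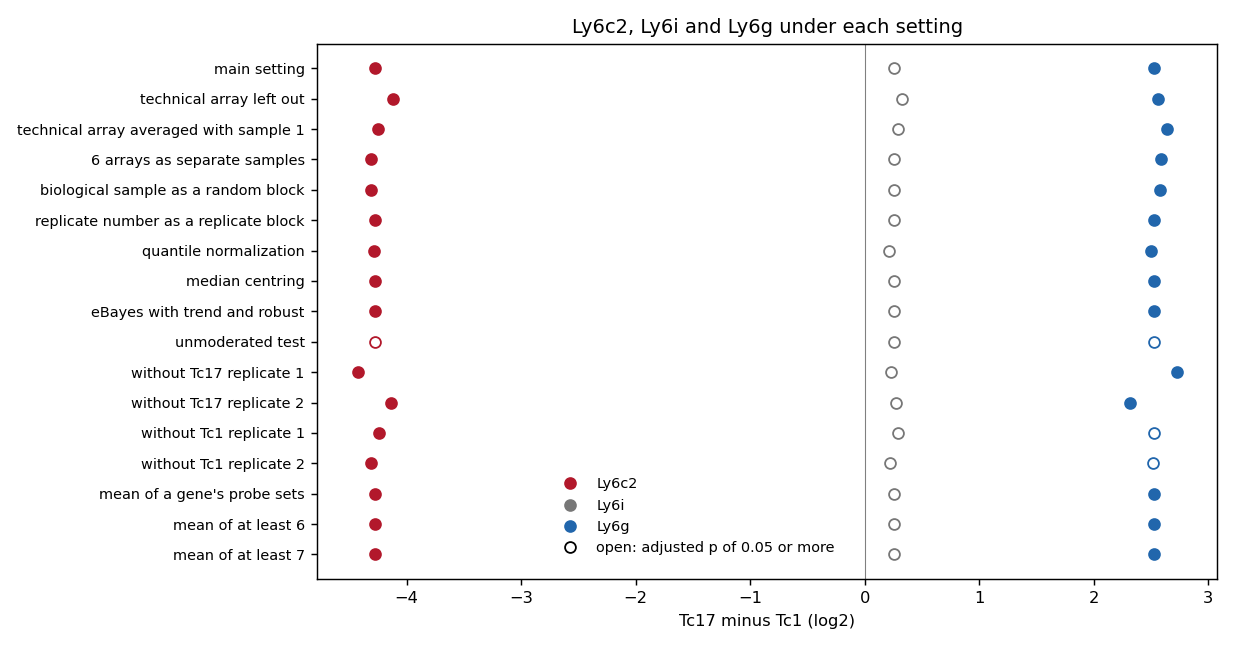
Log2 difference, Tc17 minus Tc1 (horizontal axis), of Ly6c2 (red), Ly6i (grey) and Ly6g (blue) under the main setting and each alternative, with open points where the adjusted p was 0.05 or more. Ly6c2 stays between -4.42 and -4.12 and Ly6g between 2.32 and 2.72.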

How the data were processed

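Affymetrix arrays measured total RNA of Tc17 and Tc1 cultures. The authors deposited log2 intensities; the submitters' processing notes name RMA and Partek. RMA corrects background, normalizes arrays to a common distribution and summarizes probe sets; the array build and annotation release are not given in the sources used here. The technical array of each group was averaged with sample 2 (log2 values). All 41345 probe sets were fitted, without a filter, with limma 3.58.1 in R 4.3.3 (lmFit, eBayes, Benjamini-Hochberg), with 2 residual and 2.63 moderation degrees of freedom. With 2 samples per group no exact permutation p below 0.333 is possible, so single genes rest on limma's moderated spread. The number of biological samples, 2 per group, limits the precision.

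Genes were named from the platform annotation (23521 probe sets with 1 symbol, 1814 with several, 16010 with none). The members and lists were chosen with earlier results of these data known. Named genes are all members, up to 5 called (the 4 largest where more) and the 2 largest uncalled differences of each list, chromosome neighbours that passed and the 5 nearest patterns; other genes were picked after their values were seen. The erythroid markers had no probe set of 1 symbol. The motifs were chosen after the upstream sequences had been seen. Upstream sequences were aligned with Biopython 1.88. The fit was tested on simulated data, and alternatives changed 1 choice at a time.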

Additional observations from a re-analysis of the deposited data

How the results depend on the processing

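Over 16 alternatives the difference of Ly6c2 ran from -4.42 to -4.12 (-4.42 to -4.13 leaving out 1 sample) and that of Ly6g from 2.32 to 2.72 (the same range leaving out 1 sample). Without moderation, with 2 residual degrees of freedom alone, neither passed (-4.28, adjusted p = 0.357, and 2.52, adjusted p = 0.409) and 0 members, 0 probe sets and 0 genes of either the GPI-anchored or the interferon-responsive list were called. Ly6c1 turned to 0.12 with the technical array left out, 0.10 without Tc1 sample 1 and 0.24 without Tc17 sample 2 (-0.30 to 0.24 leaving out 1 sample). Ly6d, Ly6e, Ly6i and Ly6k changed neither sign nor call. Ly6g lost its call without Tc1 sample 1 or 2. Ly6a2 passed in 9 of 16 alternatives (limma adjusted p = 0.0012 to 0.492). The filters on the mean (6 and 7) removed Ly6c1, the higher one also Ly6d, and gave them no value. No probe set named a member with other symbols, so that alternative was not run.

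Of all probe sets 418 were called; the count was 1581 with the technical array averaged with sample 1, 2318 with 6 separate arrays, 2074 with a random block, 650 and 630 under the filters, 874 with gene means (fewer features tested) and 48 to 125 leaving out 1 sample. Members called numbered 1 to 2 leaving out 1 sample and 2 otherwise, but for the unmoderated test. Calls in the other Ly6/uPAR genes were 1 with the technical array left out, under either filter and with gene means, 2 with it moved to sample 1, with separate arrays and with the random block, and 0 to 1 leaving out 1 sample. GPI synthesis calls were 2 under each of these but the technical array left out and single samples left out. GPI-anchored calls were 0 to 2 leaving out 1 sample. Interferon-responsive calls were 8 with the technical array moved to sample 1, separate arrays or the random block, and 0 leaving out 1 sample. The cause of these shifts was not tested.

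With the replicate number as a replicate block, 1535 probe sets, 4 other Ly6/uPAR genes and 2 GPI synthesis genes were called, and Ly6c2 (-4.28, limma adjusted p = 0.000513) and Ly6g (2.52, 0.0021) kept their calls. Deviations of same-numbered samples had a correlation of 0.31 over the probe sets (not independent of each other), but no label pairs the numbers.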
